A study of Mus musculus with 4 samples.

Results

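The keratin genes of the mouse were examined in stomach tissue that lacked or carried a functional copy of Hdc, the gene of the histamine-producing enzyme histidine decarboxylase. The keratins were all genes whose symbol in the array annotation is Krt followed directly by a digit, with pseudogenes left out. This gave 52 of the 22180 genes that had a probe set with 1 gene symbol. Krt74 was left out because the gene table of assembly GRCm38.p6 lists it as a transcribed pseudogene. Krt5, the type II partner of Krt14 in basal cells, shares its annotated probe set with Krt6a and is therefore not among the 52. All 52 were kept whatever their signal.

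RNA of stomach tissue from FVB mice at 1 year of age was measured on 4 Affymetrix arrays, of which 2 carried the label Hdc-/- and 2 the label Hdc+/+. The mice of both genotypes were kept on the same diet and light cycle, and no treatment other than the washing and mincing of the tissue is stated. The titles call arrays of a genotype biological replicates and say nothing of separate animals. Each p-value therefore measures the spread between these samples, which may not be a spread between animals. The labels do not say how much of the squamous forestomach or of the glandular stomach entered each sample, nor which cells lack Hdc. The gastrokine genes Gkn1 and Gkn2, made by the surface cells of the glandular stomach, read from 12.81 to 13.35 on the log2 scale on all arrays. Hdc itself read 3.77 and 4.06 on the Hdc-/- arrays and 3.99 and 3.82 on the Hdc+/+ arrays, so it gave no check of the genotype labels, and every direction here rests on those labels. Values are log2 probe set values as the authors deposited them, differences are Hdc-/- minus Hdc+/+, and an SE is limma's moderated standard error with n = 2 per group. With so few arrays, precision is low throughout.

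Keratins are the intermediate filament proteins of epithelial cells, and each filament is built from a type I and a type II chain. Simple keratins such as Krt8 and Krt18 fill the single-layered epithelium that lines the glandular stomach and the intestine. Squamous keratins belong to layered epithelium, which in the mouse lines the forestomach: basal cells use Krt5 with Krt14, and cells that leave the basal layer exchange these for Krt4 with Krt13 or Krt1 with Krt10. Type I and type II genes lie in separate clusters, and Krt18 is the type I gene that sits beside Krt8 in the type II cluster.

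Promoter sequences were available in the RefSeq table of assembly GRCm38.p6 for 35 of the 52 keratins. The 250 bases before the transcription start are shown for Krt13, Krt20 and Krt7. These are some of the keratins that read lower on the Hdc-/- arrays at an unadjusted p under 0.05. Krt1 and Krt4 had no sequence in that table, and Krt10, Krt14 and Krt73 are not shown either. Also shown are the simple partners Krt8 and Krt18, which did not differ detectably. The sequences run 5′ to 3′ on the strand of the gene. Capitals mark matches on either strand to the TATA box TATAAA, the GC box GGGCGG and the AP-1 pattern TGANTCA, where N is any base.
Krt13 promoter (chr11:100121567-100121816, minus strand): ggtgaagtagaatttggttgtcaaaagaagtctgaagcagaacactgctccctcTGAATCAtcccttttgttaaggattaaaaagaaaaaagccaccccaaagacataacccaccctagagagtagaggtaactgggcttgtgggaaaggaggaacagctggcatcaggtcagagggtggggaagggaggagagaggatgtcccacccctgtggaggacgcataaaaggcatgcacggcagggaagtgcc
Krt20 promoter (chr11:99438154-99438403, minus strand): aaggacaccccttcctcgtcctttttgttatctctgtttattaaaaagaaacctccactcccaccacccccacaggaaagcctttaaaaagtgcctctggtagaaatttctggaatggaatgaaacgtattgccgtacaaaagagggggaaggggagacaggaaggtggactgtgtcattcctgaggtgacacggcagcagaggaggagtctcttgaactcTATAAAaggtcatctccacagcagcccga
Krt7 promoter (chr15:101412153-101412402, plus strand): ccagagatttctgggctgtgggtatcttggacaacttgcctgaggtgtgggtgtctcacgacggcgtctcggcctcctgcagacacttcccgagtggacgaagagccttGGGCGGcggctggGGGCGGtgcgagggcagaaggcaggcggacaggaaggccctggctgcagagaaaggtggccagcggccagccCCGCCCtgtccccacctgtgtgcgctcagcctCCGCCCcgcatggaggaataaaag
Krt8 promoter (chr15:102004343-102004592, minus strand): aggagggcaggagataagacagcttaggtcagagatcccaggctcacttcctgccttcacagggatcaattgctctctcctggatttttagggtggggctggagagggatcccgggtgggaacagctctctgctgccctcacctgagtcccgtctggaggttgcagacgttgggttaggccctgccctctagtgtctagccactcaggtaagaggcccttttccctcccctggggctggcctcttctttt
Krt18 promoter (chr15:102027966-102028215, plus strand): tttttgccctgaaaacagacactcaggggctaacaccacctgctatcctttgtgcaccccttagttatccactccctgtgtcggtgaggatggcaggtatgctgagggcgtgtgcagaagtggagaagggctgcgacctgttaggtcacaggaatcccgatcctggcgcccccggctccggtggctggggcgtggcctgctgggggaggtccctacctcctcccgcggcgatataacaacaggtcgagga

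The Krt20 window held the TATAAA match, which began 29 bases before the start. The Krt7 window held 4 matches to GGGCGG and was 66.0% G or C. The Krt13 window held a match to TGANTCA, with A at N, that began 196 bases before the start. The Krt8 and Krt18 windows held none of these letters. Over all 32851 windows of the same length in the table, 12.4% held TATAAA, 32.7% held GGGCGG and 6.75% held TGANTCA, and the median G or C content was 52.4%. The 3 motifs do not overlap one another in these windows, and a match is a description of the letters only.

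No keratin passed limma's test with Benjamini-Hochberg adjustment over all 22180 genes, in which 1 gene was called higher (0.00451%) and 0 genes lower (0%). The smallest adjusted p of a keratin was 0.189, for Krt4. At an unadjusted p under 0.05, 8 of the 52 keratins read lower on the Hdc-/- arrays, against 4.87% of all genes, and 0 read higher, against 3.68% of all genes. The 8 were Krt1, Krt4, Krt7, Krt10, Krt13, Krt14, Krt20 and Krt73. The count was 4 (Krt1, Krt4, Krt7 and Krt20) without Hdc+/+ array 2 and 5 (the same 4 and Krt10) without Hdc-/- array 2. The groups did not overlap for 13 lower and 6 higher keratins, against 17.6% and 21.5% of all genes. The median difference over the 52 keratins was -0.01, against 0.02 over all genes. Only 18 of the 52 averaged above the median of genes, so most of the values behind the family median were low. Of the 28 type I keratins 4 read lower at that p, as did 4 of the 24 type II keratins.

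**Figure D1:**
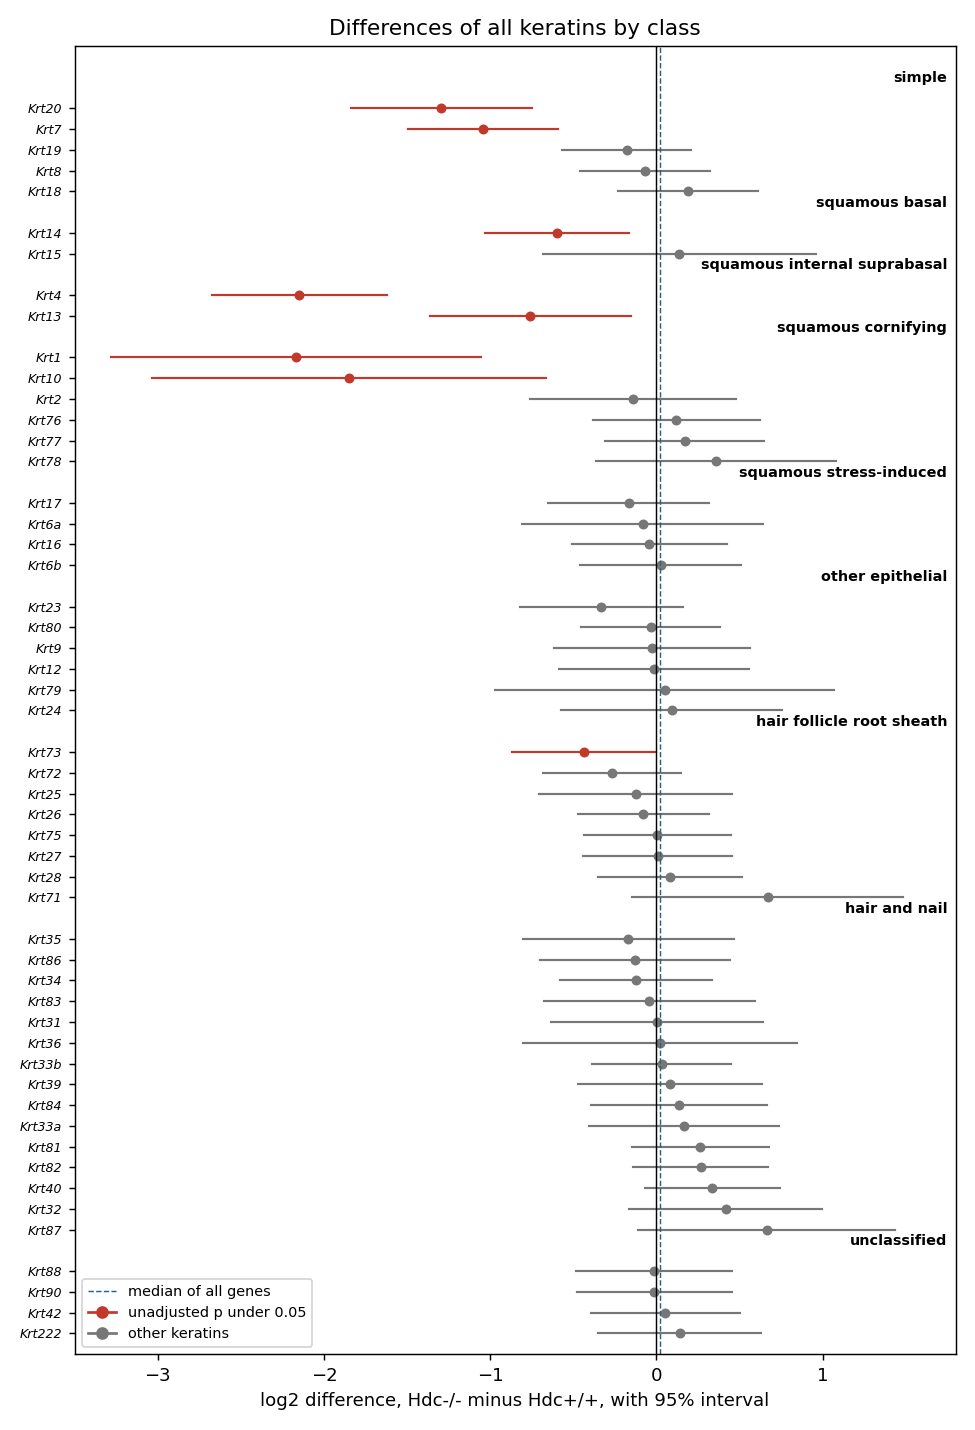
Log2 differences of all 52 keratins, Hdc-/- minus Hdc+/+, with limma's 95% intervals, grouped by class down the page; red marks the 8 with an unadjusted p under 0.05 and the dashed line the median of all genes (0.02). Krt1, Krt4 and Krt10 lie farthest to the left, and most hair keratins straddle 0.

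The keratins that form after cells leave the basal layer held the largest differences. Krt4, the type II keratin of the upper layers of internal squamous linings such as the esophagus and forestomach, read 4.22 and 4.62 on the Hdc-/- arrays and 6.43 and 6.70 on the Hdc+/+ arrays. The groups stood well apart, with a log2 difference of -2.15 (SE 0.21), or 4.43-fold (limma adjusted p = 0.189). Its type I partner Krt13 read 4.81 and 4.83 on the Hdc-/- arrays and 5.26 and 5.89 on the Hdc+/+ arrays. The Krt13 difference was smaller, at -0.76 (SE 0.24; adjusted p = 0.496), and it was -0.44 without Hdc+/+ array 2, which was the highest of the arrays for this gene.

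Krt1 and Krt10, the partner chains of cornifying epithelium, showed the same direction with a wider spread between arrays. Krt1 read 4.05 and 5.22 on the Hdc-/- arrays and 6.41 and 7.19 on the Hdc+/+ arrays, a difference of -2.17 (SE 0.45), or 4.49-fold (adjusted p = 0.338). Krt10 read 4.51 and 5.97 on the Hdc-/- arrays and 6.89 and 7.28 on the Hdc+/+ arrays, a difference of -1.85 (SE 0.48), or 3.60-fold (adjusted p = 0.419). For both genes Hdc-/- array 1 was the lowest and Hdc+/+ array 2 the highest, and the groups did not overlap. Without Hdc-/- array 1 the differences were -1.58 for Krt1 and -1.12 for Krt10, and without Hdc-/- array 2 they were -2.75 and -2.58.

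The other 4 keratins of the cornifying class were not among the lower ones. Krt78, found in the upper layers of stratified epithelium, read 6.08 and 5.28 on the Hdc-/- arrays and 5.41 and 5.24 on the Hdc+/+ arrays. Hdc-/- array 1 alone stood above the others, and the difference of 0.36 (SE 0.29) was -0.045 without it. Krt2, a keratin of the uppermost living layers of skin, read 3.69 and 3.61 on the Hdc-/- arrays and 4.11 and 3.47 on the Hdc+/+ arrays. Krt76, a keratin of the hard palate, read 3.11 and 3.48 on the Hdc-/- arrays and 3.28 and 3.07 on the Hdc+/+ arrays. Krt77 read 3.87 and 4.24 on the Hdc-/- arrays and 3.92 and 3.85 on the Hdc+/+ arrays. In each of these 4 genes the groups overlapped, and Krt2, Krt76 and Krt77 all averaged below the median of genes.

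Of the 2 basal keratins measured, Krt14 was among the lower ones and Krt15 was not. Krt14 read 3.87 and 3.68 on the Hdc-/- arrays and 4.29 and 4.47 on the Hdc+/+ arrays, a difference of -0.60 (SE 0.17), or 1.51-fold (adjusted p = 0.460). Krt15, another type I chain of basal cells, read 3.22 and 3.94 on the Hdc-/- arrays and 3.78 and 3.11 on the Hdc+/+ arrays. The Krt15 groups overlapped, and the 95% interval of its difference ran from -0.68 to 0.96. Both genes averaged below the median of genes.

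The keratins that wounded or stressed squamous epithelium switches on gave no detectable difference. Krt6a read 3.22 and 3.92 on the Hdc-/- arrays and 3.43 and 3.88 on the Hdc+/+ arrays, and Krt6b read 3.87 and 4.13 on the Hdc-/- arrays and 3.82 and 4.12 on the Hdc+/+ arrays. These neighbouring genes are closely similar in sequence, so which of them gave a signal is uncertain. Krt16 read 3.75 and 3.66 on the Hdc-/- arrays and 3.58 and 3.91 on the Hdc+/+ arrays. Krt17 read 4.01 and 3.84 on the Hdc-/- arrays and 4.27 and 3.92 on the Hdc+/+ arrays. The groups overlapped for all 4 genes, whose differences ran from -0.17 to 0.03, and all 4 averaged below the median of genes. The 95% interval of the difference ran from -0.51 to 0.42 for Krt16 and from -0.81 to 0.64 for Krt6a. Changes within these ranges therefore remain possible.

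Over the 14 squamous keratins, 5 read lower and 0 higher at an unadjusted p under 0.05, against 4.87% and 3.68% of all genes, and the median difference was -0.11, against 0.02 over all genes. The groups were separate for those 5 lower genes and for 0 higher genes, against 17.6% and 21.5% of all genes, and overlapped for the other 9. The separate genes are the same 5 that were counted by p, so their separation is no further support.

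**Figure D2:**
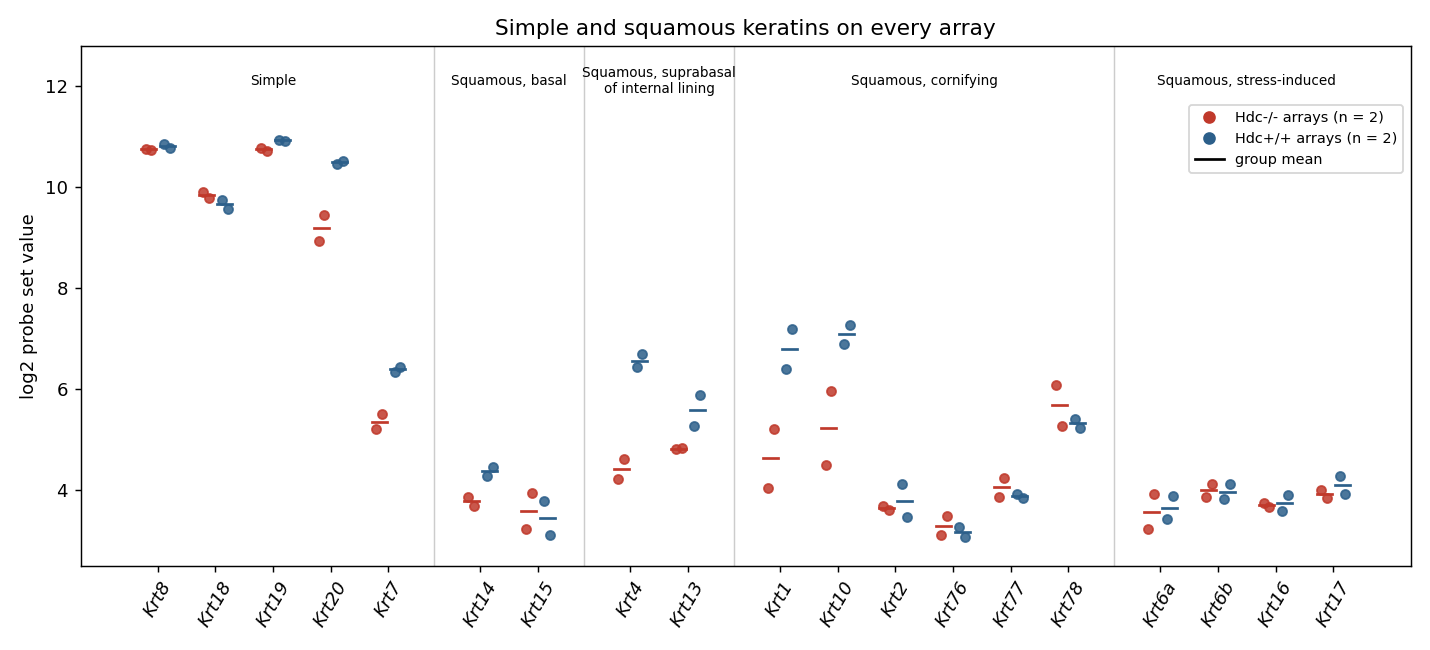
Log2 probe set values of the 5 simple and 14 squamous keratins, with the Hdc-/- arrays (red) left of the Hdc+/+ arrays (blue) and a bar at each group mean (n = 2 per group). Krt20, Krt7, Krt4, Krt13, Krt1, Krt10 and Krt14 show separate groups at lower Hdc-/- values, while Krt8, Krt18 and Krt19 stay within narrow bands.

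Of the 5 simple keratins, Krt20 and Krt7 read lower on the Hdc-/- arrays, while Krt8, Krt18 and Krt19 gave no detectable difference. Krt8, the main type II keratin of simple epithelium, read 10.77 and 10.73 on the Hdc-/- arrays and 10.85 and 10.79 on the Hdc+/+ arrays. The difference of -0.07 (SE 0.16; limma adjusted p = 0.949) had a 95% interval from -0.46 to 0.32. Krt18, the type I partner of Krt8, read 9.91 and 9.80 on the Hdc-/- arrays and 9.76 and 9.56 on the Hdc+/+ arrays. Its difference of 0.19 (SE 0.17) had an interval from -0.23 to 0.61. The Krt18 probe set with the lower mean differed by 0.10 (SE 0.22). Krt19, a type I keratin of glandular and ductal epithelium, read 10.77 and 10.73 on the Hdc-/- arrays and 10.93 and 10.92 on the Hdc+/+ arrays. Its difference of -0.18 (SE 0.16) had an interval from -0.57 to 0.21, so a change of the size seen for Krt14 lay outside the intervals of Krt8 and Krt19. The groups of these 3 genes did not overlap either, but by margins no wider than the SE.

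Krt20, a type I keratin of mature surface cells of the stomach and intestine, read 8.94 and 9.46 on the Hdc-/- arrays and 10.46 and 10.52 on the Hdc+/+ arrays. The groups were separate, with a difference of -1.29 (SE 0.22), or 2.45-fold (adjusted p = 0.279). Krt7, a type II keratin of ducts, of the bladder lining and of mesothelium, read 5.21 and 5.50 on the Hdc-/- arrays and 6.35 and 6.45 on the Hdc+/+ arrays. The difference was -1.04 (SE 0.18), or 2.06-fold (adjusted p = 0.280). Neither gene depended much on 1 array, since leaving out each array in turn gave Krt20 differences from -1.55 to -1.04 and Krt7 differences from -1.19 to -0.90. Over the 5 simple keratins the median difference was -0.18. The intervals of Krt20, from -1.84 to -0.75, and of Krt8 did not overlap. Simple and squamous keratins alike thus held members with lower values and members without a detectable difference.

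Of the remaining 33 keratins, 1 read lower and 0 higher at an unadjusted p under 0.05, against 4.87% and 3.68% of all genes. Krt73, a keratin of the inner root sheath of hair, read 4.43 and 4.61 on the Hdc-/- arrays and 5.04 and 4.86 on the Hdc+/+ arrays, a difference of -0.44 (SE 0.17; adjusted p = 0.582). The 8 root sheath keratins read between 2.21 and 5.04 and had a median difference of -0.04. The 15 hair and nail keratins read between 2.14 and 5.48, and their differences ran from -0.17 to 0.66 with a median of 0.08. Of the 8 root sheath keratins 1 averaged above the median of genes, as did 2 of the 15 hair and nail keratins. Some of these hair keratins are closely similar copies, so signals may be shared among them. Among the 6 other epithelial keratins 0 passed at that p by limma in either direction, and differences ran from -0.33 to 0.09. Krt23, a type I keratin, read 8.13 and 8.15 on the Hdc-/- arrays and 8.67 and 8.27 on the Hdc+/+ arrays. Krt79 varied within a genotype, at 6.87 and 5.61 on the Hdc-/- arrays and 6.12 and 6.25 on the Hdc+/+ arrays, and 4 unclassified keratins had differences from -0.02 to 0.14.

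Among genes whose products bind or link keratin filaments, Flg, Hrnr and Ppl read lower on the Hdc-/- arrays (limma adjusted p = 0.253, 0.293 and 0.569). Of 18 linker and binding genes, 3 read lower and 0 higher at an unadjusted p under 0.05, with a median difference of -0.13, against 4.87% and 3.68% and a median of 0.02 over all genes. Flg, whose product filaggrin bundles keratin filaments, read 3.60 and 3.81 on the Hdc-/- arrays and 4.88 and 5.24 on the Hdc+/+ arrays, a difference of -1.35 (SE 0.20). Hrnr, of the same S100-fused family, read 2.51 and 3.13 on the Hdc-/- arrays and 4.15 and 4.76 on the Hdc+/+ arrays, a difference of -1.64 (SE 0.30). Flg and Hrnr both averaged below the median of genes. Ppl, the gene of the linker periplakin, read 5.51 and 5.45 on the Hdc-/- arrays and 5.80 and 6.13 on the Hdc+/+ arrays, a difference of -0.48 (SE 0.19). The next smallest p-values belonged to the envoplakin gene Evpl (-0.32, SE 0.16), the trichohyalin gene Tchh (-0.31, SE 0.17) and the plakophilin gene Pkp1 (-0.28, SE 0.17), of which Tchh also stands in the hair follicle list and Pkp1 in the squamous marker list.

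Of 13 genes of transcription factors known from squamous epithelium, 1 read lower and 0 higher at an unadjusted p under 0.05, and the median difference was -0.02. With 4.87% of all genes lower and 3.68% higher, 1 of 13 is close to the share of all genes. Grhl3, a factor of terminal differentiation of the epidermis, read 3.96 and 4.23 on the Hdc-/- arrays and 4.76 and 4.88 on the Hdc+/+ arrays, a difference of -0.72 (SE 0.18; adjusted p = 0.400). The next by p were Zfp750 (0.38, SE 0.16), which acts in keratinocyte differentiation, Ovol1 (0.29, SE 0.18), Klf4 (-0.24, SE 0.20), Klf5 (0.32, SE 0.26) and Pax9 (-0.26, SE 0.23). Their differences pointed in both directions.

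Of 22 markers of squamous epithelium other than keratins, 11 read lower and 0 higher on the Hdc-/- arrays at an unadjusted p under 0.05, against 4.87% and 3.68% of all genes. Their median difference was -0.54, against 0.02 over all genes. Their values summed on the linear scale were 2303 and 2540 on the Hdc-/- arrays and 4337 and 4249 on the Hdc+/+ arrays. All 22 differences lay below 0, and for 20 the groups did not overlap, against 17.6% of all genes with separate lower groups. Cnfn, a gene of the cornified envelope, read 5.32 and 5.90 on the Hdc-/- arrays and 6.95 and 7.53 on the Hdc+/+ arrays. Trp63, the factor of basal squamous cells, was among the 2 markers with overlapping groups. It averaged below the median of genes, at 3.25 and 3.61 on the Hdc-/- arrays and 3.37 and 3.76 on the Hdc+/+ arrays. In tissue RNA, fewer cells of a type and less RNA per cell cannot be told apart. How far the amount of squamous tissue in a sample entered the keratin differences was not tested. Markers of hair follicles gave no detectable shift, with a median difference of 0.02 over 8 genes. Of these, 0 passed an unadjusted p under 0.05 by limma, and 0 averaged above the median of genes. Their linear sums were 96.2 and 115 on the Hdc-/- arrays and 106 and 98.8 on the Hdc+/+ arrays.

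Krt7 and Krt20 were set beside markers of mesothelium, intestine and gastric columnar epithelium, and then beside markers of further tissues. At an unadjusted p under 0.05, 4.87% of all genes read lower and 3.68% higher. Of 8 mesothelial markers, 4 read lower and 0 higher at that p, with a median difference of -1.13 and linear sums of 316 and 369 on the Hdc-/- arrays and 844 and 716 on the Hdc+/+ arrays. Msln, the mesothelin gene, read 4.63 and 4.88 on the Hdc-/- arrays and 6.29 and 5.96 on the Hdc+/+ arrays, while Wt1, a further mesothelial marker, differed by 0.03 (SE 0.17). The part of mesothelium in the Krt7 difference was not tested. Of 16 intestinal markers, 6 read lower and 0 higher at that p, with a median difference of -1.52 and linear sums of 796 and 710 on the Hdc-/- arrays and 2027 and 10549 on the Hdc+/+ arrays. The sum was highest on Hdc+/+ array 2, and on Hdc+/+ array 1 it also exceeded both Hdc-/- arrays. Krt20 read 10.46 and 10.52 on the Hdc+/+ arrays, and its difference was -1.27 without array 2 of that genotype. Leaving out that array does not remove the intestinal difference. The part of intestinal tissue in the Krt20 difference was not tested. Of 12 markers of gastric columnar epithelium, 2 read lower and 0 higher at that p, with a median difference of -0.11. The marker with the smallest p was Lgals4, a galectin gene of gut epithelium, which read 9.02 and 8.85 on the Hdc-/- arrays and 10.03 and 10.12 on the Hdc+/+ arrays. The groups did not overlap for 4 lower and 2 higher gastric columnar markers, against 17.6% and 21.5% of all genes. The 2 higher ones were Muc1 (0.28, SE 0.16) and Elf3 (0.22, SE 0.16). The surface cell genes Gkn1 and Gkn2 differed by -0.11 (SE 0.16) and -0.05 (SE 0.16). Of 8 pancreatic acinar genes, 0 passed at that p by limma in either direction, and the groups overlapped for 6. Their median difference of -1.47 came with linear sums of 147 and 159 on the Hdc-/- arrays and 108 and 4998 on the Hdc+/+ arrays, so only Hdc+/+ array 2 was higher than the Hdc-/- arrays. Of 10 hepatocyte genes, 10 read lower and 0 higher at that p, with a median difference of -3.91. Their linear sums were 319 and 534 on the Hdc-/- arrays and 4385 and 13078 on the Hdc+/+ arrays. Of 7 adipocyte genes, 5 read lower and 0 higher at that p, with a median difference of -1.50. Their linear sums were 375 and 553 on the Hdc-/- arrays and 1175 and 1830 on the Hdc+/+ arrays. Median differences were -0.25 for 8 smooth muscle genes and 0.12 for 6 tuft cell genes. The part of these tissues in the keratin values was not tested.

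**Figure D3:**
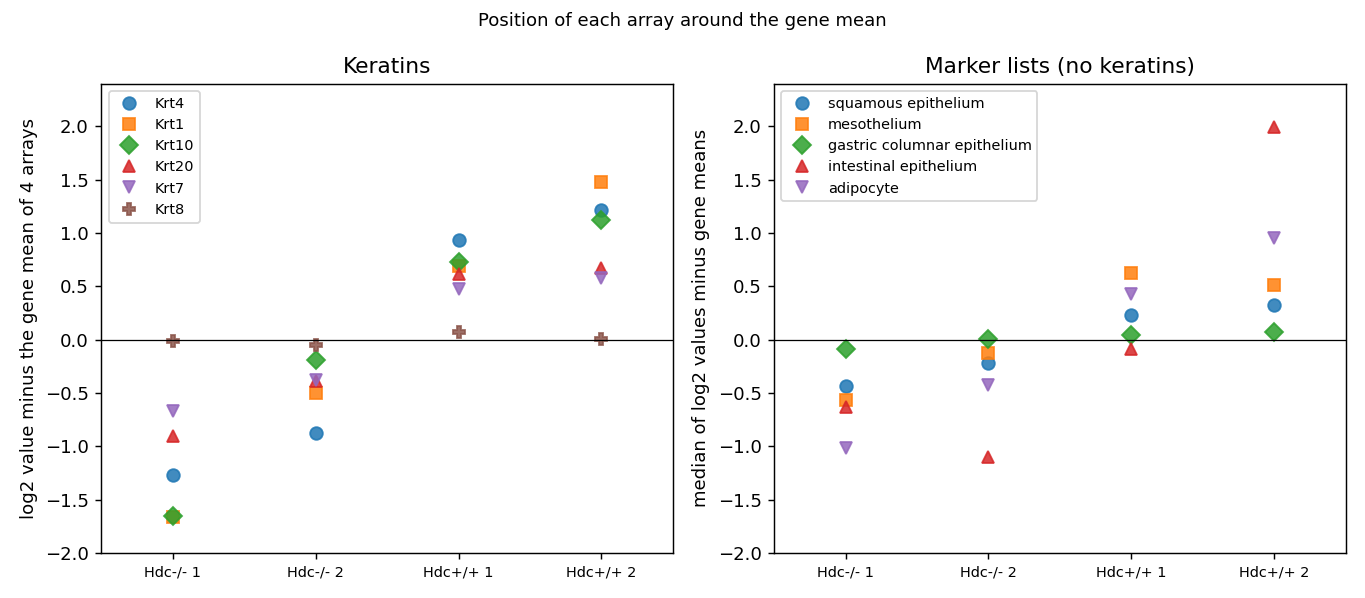
Position of each array around the mean of the 4 arrays, in log2 units, for 6 keratins (left) and as the median of 5 marker lists that hold no keratin (right), with the Hdc-/- arrays left of the Hdc+/+ arrays. Krt8 stays near 0, the other keratins lie below 0 on both Hdc-/- arrays and above 0 on both Hdc+/+ arrays, and the intestinal list peaks on Hdc+/+ array 2 at 1.99.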

How the data were processed

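Total RNA of stomach tissue was biotinylated as cDNA for Affymetrix arrays, as the labels' protocols state. The deposited values are log2 probe set values that the authors normalized with RMA, and oligo and Affymetrix Power Tools are also named, per the submitters' processing notes. No filter or genome build of the array is stated in what was read here. No background values were used here, so signal over background is unknown for each probe set, and no files outside the value table were used.

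Of 41345 probe sets, 23521 had 1 gene symbol, 1814 several and 16010 none. Each gene was represented by its probe set of highest mean across the 4 arrays, which mattered for 1 keratin, Krt18. Genotypes were compared by limma 3.58.1 in R 4.3.3 with no covariate (2 residual and 3.62 prior degrees of freedom), with Benjamini-Hochberg adjustment over all genes at 0.05. An unadjusted p under 0.05 was used for counts, set beside the share of all genes. With 2 arrays against 2, the smallest p of an exact two-sided permutation test is 0.333. The fit was tested on simulated data.

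The keratins, their classes, the linker, regulator and marker lists and the naming rule were chosen with earlier results of these data known. The rule names every simple and squamous keratin, other keratins at an unadjusted p under 0.05, and up to 6 genes of the linker and regulator lists by smallest p. Krt23, Krt79 and the marker genes named were chosen after their values were seen. Alternatives covered filters on dim genes, averaging of probe sets, other normalizations, another variance prior, the replicate number as a block, each array left out and every probe set tested. Promoter windows were taken where they begin at the start of the gene's span in the gene table.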

Additional observations from a re-analysis of the deposited data

How the results depend on the processing

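No keratin passed over all genes by limma under any alternative run, and Krt1, Krt4, Krt7 and Krt20 read lower at an unadjusted p under 0.05 in each of them. Lower keratins numbered 8, or 7 with the dimmer 50% of genes left out, with the replicate block and with every probe set tested. With single arrays left out, the lower keratins changed in members as well as in number, although the differences of the 8 all stayed below 0. Without Hdc-/- array 1, Krt13 and Krt73 left them and Krt79 entered. The count was 4 without Hdc+/+ array 2, where Krt10, Krt13, Krt14 and Krt73 no longer passed, and 5 without Hdc-/- array 2. Higher keratins numbered 1 with the replicate block (Krt87) and 1 with the crossed block (Krt71), and from 0 to 3 with single arrays left out, the 3 being Krt78, Krt79 and Krt87 without Hdc-/- array 2.

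Over all genes, limma called 1 higher and 0 lower. It called 2 and 3 after quantile normalization, 3 and 2 with a trended and robust prior, 1 and 6 with the replicate block, 0 higher with the crossed block and 0 higher with every probe set tested. With single arrays left out it called from 0 to 3 higher and from 0 to 158 lower, the 158 without Hdc+/+ array 1. The deviations of same-numbered arrays correlated at -0.12, so the numbers are not taken to pair the samples, and the crossed block was chosen after seeing the data.

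The squamous median of -0.11 was -0.14 without the dimmest 25% of genes, -1.85 without the dimmest 50% (5 squamous keratins left, where the filter on the mean of all arrays kept Krt4 through its Hdc+/+ values), -0.14 after cyclic loess and from -0.27 to -0.13 with single arrays left out. The simple median of -0.18 was -0.11 after cyclic loess. Among the keratins that the naming rule covers, 9 reversed under some alternative, with adjusted p of 0.785 (Krt78) or more by limma over all arrays. Krt79, named outside that rule, also reversed with Hdc-/- array 1 left out. On Hdc-/- array 2 it read 5.61, below the Hdc+/+ values of 6.12 and 6.25, and on Hdc-/- array 1 it read 6.87. Krt6b was -0.0032 after cyclic loess. With single arrays left out, differences ran from -0.43 to 0.26 (Krt6a), -0.12 to 0.17 (Krt6b), -0.22 to 0.49 (Krt15), -0.21 to 0.13 (Krt16), -0.35 to 0.011 (Krt17), -0.47 to 0.18 (Krt2), -0.068 to 0.31 (Krt76), -0.017 to 0.36 (Krt77) and -0.045 to 0.76 (Krt78). Fits with 1 array left in a genotype assume that it varies as the other genotype does. The causes were not tested, and 2 arrays per group limit every value.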

Other observations

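A probe set annotated to Krt5 and Krt6a together was assigned to neither gene. It read 4.84 and 4.63 on the Hdc-/- arrays and 5.52 and 5.91 on the Hdc+/+ arrays, so that it differed by -0.98 on the log2 scale (SE 0.22; limma adjusted p = 0.503 over every probe set). The groups did not overlap, whereas those of the probe set annotated to Krt6a alone did. The pseudogene Krt74 read 3.38 and 2.86 on the Hdc-/- arrays and 2.70 and 3.32 on the Hdc+/+ arrays, with overlapping groups.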
